A study of Rattus norvegicus with 25 samples.

Results

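Potassium channel genes were followed in the striatum of adolescent rats born to control, nicotine-exposed or food-restricted dams. A gene was counted here if the array annotation gave a probe set a single symbol beginning with Kcn, and each gene was represented by its probe set with the highest mean over all 25 arrays. The rule found 83 of the 14506 genes that the annotation names in this way, on 85 of the 29214 probe sets of the array. Of these genes, 58 passed a filter at the median level of all probe sets (a log2 level of 6.97) and entered the tests with 14607 probe sets in all, and the remaining 25 fell below it. The letter after Kcn gives the family. Of the 58 genes, 21 belonged to the voltage-gated families a to d and h, 9 to the inward rectifiers (j), 7 to the two-pore channels (k), 4 to the calcium-activated channels (m and n), 2 to KCNQ (q), and the other 15 to the letters e, f, g, i, s, t and v.

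All animals were male Lister Hooded rats, untested in behaviour, killed at postnatal day 35 to 42, and the RNA of the striatum was hybridised to 25 Affymetrix rat Gene 1.0 ST arrays, each with the RNA of a single rat. The Con group (n = 8) was born to dams that could eat and drink freely. The Nic group (n = 7) was born to dams that drank nicotine solution from before mating and through pregnancy, a treatment that also lowered their food intake. The Con-Pf group (n = 10) was born to pair-fed dams, which drank water and received each day the amount of food that matched nicotine dams had eaten the day before. Nic dams also drank less than Con and Con-Pf dams, and only the Con-Pf dams had their lower food intake imposed on them. In the week before pregnancy, Con-Pf dams drank less than Con dams too, by the study's own test. Con-Pf against Con therefore addressed imposed food restriction without nicotine, with this difference in fluid intake. Con-Pf against Nic set imposed food restriction against nicotine with lower food and fluid intake, and Nic against Con combined nicotine with both. Nicotine, fluid intake and the stress of imposed feeding cannot be told apart in the comparison of Con-Pf with Nic. The replicates were rats, the litter of each rat was not given, and p-values measure the spread between these rats only. The 3 comparisons share their groups, so they are not independent of each other.

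Potassium channels let potassium leave or enter the cell and thereby set its resting potential, the shape of its action potentials and its firing pattern. In striatal projection neurons, inward rectifiers of the Kir2 type hold the membrane at a very negative resting potential, while A-type channels built from Kv4 and Kv1 subunits and their helper proteins delay the first spike. KCNQ channels and the calcium-activated channels oppose repeated firing, and two-pore channels carry the background leak.

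The change that passed the test in this gene family was a rise of Kcnj2 in Con-Pf rats relative to Con rats, and the gene closest to the threshold in the other direction was Kcnh4. Kcnj2 encodes Kir2.1, a strong inward rectifier, and Kcnh4 encodes a voltage-gated channel of the ether-a-go-go family. Because these genes carry the main values, the 250 bases before their RefSeq transcription starts are shown, 5′ to 3′ along the gene's strand on the rat build GRCr8. The Kcnj2 stretch is chr10:96559975-96560224 on the plus strand, and the capitals mark a CCAAT box in reverse orientation (ATTGG, 70 to 66 bases before the start) and a GC box (GGGCGG, 50 to 45 bases before it). The Kcnh4 stretch is chr10:86188477-86188726 on the minus strand, and the capitals mark an E-box (CACGTG, 116 to 111 bases before the start).
Kcnj2: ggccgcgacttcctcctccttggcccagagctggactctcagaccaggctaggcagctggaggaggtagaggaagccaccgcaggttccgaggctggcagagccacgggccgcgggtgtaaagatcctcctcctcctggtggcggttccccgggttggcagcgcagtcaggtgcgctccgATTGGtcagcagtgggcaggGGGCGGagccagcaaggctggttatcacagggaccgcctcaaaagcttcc
Kcnh4: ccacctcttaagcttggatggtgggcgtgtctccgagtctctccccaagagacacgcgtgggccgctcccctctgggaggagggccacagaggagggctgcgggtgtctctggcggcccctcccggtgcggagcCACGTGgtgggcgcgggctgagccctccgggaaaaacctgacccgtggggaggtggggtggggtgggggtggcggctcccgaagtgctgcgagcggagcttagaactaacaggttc
An upstream sequence of this kind was at hand for 58 of the 83 genes, which are not the same 58 that passed the filter. On either strand, the GC box stood in 28 of them (48.3%, against 30.5% of 33469 rat promoters of the same length) and CCAAT in 13 (22.4%, against 34%). The E-box was found in Kcnh4 and Kcne4 (3.45%, against 5.59% of all promoters). The AP-1 motif TGANTCA, which Fos and Jun proteins bind, was found in Kcne1 and Kcnj16 (3.45%, against 6.34%), and the cAMP response element TGACGTCA in no member (against 1.59%). The TATA box TATAAA was found in Kcnj1 and Kcnj13 (3.45%, against 12.9%). The median GC content of the members' sequences was 59.6%, and that of all promoters 51.2%. A match of letters is not a measured binding site, and no match says only that these letters are not in this window.

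Before the tests, 2 control arrays stood apart from the rest. On the first principal component, with 30.4% of the variance over the 14607 probe sets, Con 3 and Con 5 had scores of -25.2 and -33.9. The mean absolute deviation of the 58 potassium channel genes from their own means was 0.12 on Con 3 and 0.15 on Con 5 on the log2 scale, and that of all probe sets kept was 0.18 and 0.23. On Con 5, Kcnt1 stood 0.50 above its mean and Kcnk1 0.28 below (a deviation of -0.28), and on Con 3, Kcnh1 stood 0.33 above. When both arrays were left out, the differences of the 58 genes from Con moved by between -0.05 and 0.10 on the log2 scale, and the sign turned in 6 of 58 in Con-Pf against Con and in 9 of 58 in Nic against Con. Part of the differences from Con named here are given with and without these arrays. Con-Pf 9 and Con-Pf 10 are titled as pair-fed but described as control tissue, and were kept as Con-Pf. The study's text gives other sizes of the Con and Con-Pf groups than the titles do, and the titles were followed. Markers of striatal projection neurons overlapped between all groups, with the summed log2 level of 10 genes between 119.2 and 120.7 in Con, 119.4 and 120.3 in Nic, and 118.8 and 120.4 in Con-Pf, and 0 of the 10 passed the test in any comparison. In whole striatum, fewer cells of a type and less RNA per cell cannot be told apart.

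In Con-Pf against Con, 1 of the 58 potassium channel genes passed the test at an adjusted p under 0.05 (1.72%), beside 184 of all 14607 probe sets (1.26%). That gene was Kcnj2, which was higher, as were 146 of the 184 (1%), while 0 members and 38 probe sets (0.26%) were lower. After a further quantile normalization 119 of 179 probe sets were higher. In Con-Pf against Nic, 0 of the 58 passed, beside 27 of all probe sets (0.185%), of which 25 were higher (0.171%) and 2 lower (0.0137%). In Nic against Con, 0 passed, beside 0 of all probe sets (0%). These tests were made with limma, with p-values adjusted over all 14607 probe sets. The share of members called was close to the background, and is no result about the family.

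At an unadjusted p under 0.05 by limma, Con-Pf against Con counted 17 members (29.3%, beside 22% of all probe sets). Con-Pf against Nic counted 8 (13.8%, beside 4.36%) and Nic against Con 5 (8.62%, beside 16.2%). Of the 17, 6 were higher in Con-Pf (14.2% of all probe sets were counted as higher) and 11 lower (7.76% of all probe sets). The higher ones were Kcna3, Kcnc1, Kcnf1, Kcnj2, Kcnk3 and Kcnn3, and the lower ones Kcnab1, Kcng1, Kcnh1, Kcnh4, Kcnj8, Kcnk2, Kcnma1, Kcnn1, Kcnq3, Kcnq5 and Kcnt1. After a further quantile normalization 3 of 16 were higher, with each array centred on its median 3 of 14, and without Con 3 and Con 5 the count was 8, with 4 higher. The share of all probe sets at this limit was not computed under these settings, so these shifts are no result about the members. Of the 8 in Con-Pf against Nic, Kcna3 and Kcnj2 were higher (beside 1.82% of all probe sets) and Kcna5, Kcnh4, Kcnk2, Kcnmb4, Kcnt2 and Kcnv1 lower (beside 2.54%). Of the 5 in Nic against Con, Kcnip4, Kcnk1, Kcnmb4 and Kcnv1 were higher (beside 12.3%) and Kcnk13 lower (beside 3.96%).

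The differences were small in every family. For Con-Pf against Con the log2 fold changes of the 58 genes ran from -0.19 to 0.20, for Con-Pf against Nic from -0.18 to 0.19, and for Nic against Con from -0.16 to 0.18. Their medians were -0.02, -0.02 and -0.01, beside 0.02, -0.01 and 0.02 over all probe sets kept. In each of the comparisons 25 of the 58 members had a log2 fold change above 0 (43.1%), beside 55.8%, 44.1% and 59.1% of all probe sets. The 95% interval of the log2 fold change lay within 0.3 of 0 on both sides for 55, 55 and 54 of the 58 genes in the same order. No member met the thresholds of the study, which joined an unadjusted p under 0.01 to a difference of 0.5 or more on the log2 scale, and none had groups that did not overlap. Of all probe sets, 0.199%, 0.103% and 0.0205% met those thresholds, and 0.274%, 0.0822% and 0.0274% had groups without overlap.

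**Figure D1:**
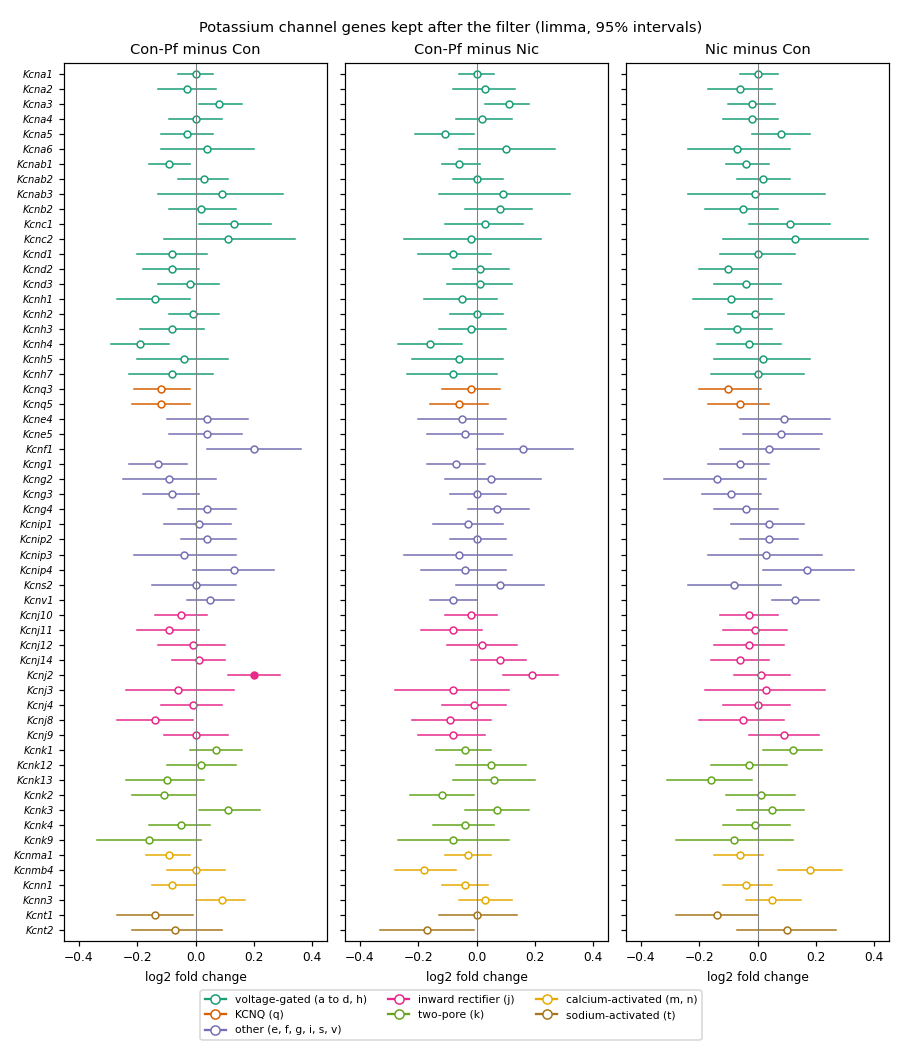
Log2 fold change of the 58 potassium channel genes (rows, coloured by family) in the 3 comparisons (panels), with 95% intervals from limma. The filled point marks the gene with an adjusted p under 0.05, Kcnj2 in Con-Pf minus Con at 0.20, and all other points are open and lie between -0.19 and 0.20.

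Rats of one group varied in these genes about as they did in others. The SD within groups had a median of 0.11 over the 58 genes on the log2 scale, with a range from 0.04 to 0.25, beside a median of 0.12 over all probe sets kept. It was lowest for Kcna1 (0.04), a Kv1.1 subunit that repolarises axons, and highest for Kcnc2 (0.25), the Kv3.2 subunit typical of fast-spiking interneurons, Kcnab3 (0.24) and Kcnj3 (0.21). For Kcna1 the log2 fold changes were 0.00 in all comparisons, with 95% intervals from -0.06 to 0.06 for both comparisons with Con-Pf. For Kcnc2 the interval in Nic against Con ran from -0.12 to 0.38, so a change of that size could not be told from 0 for this gene.

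**Figure D2:**
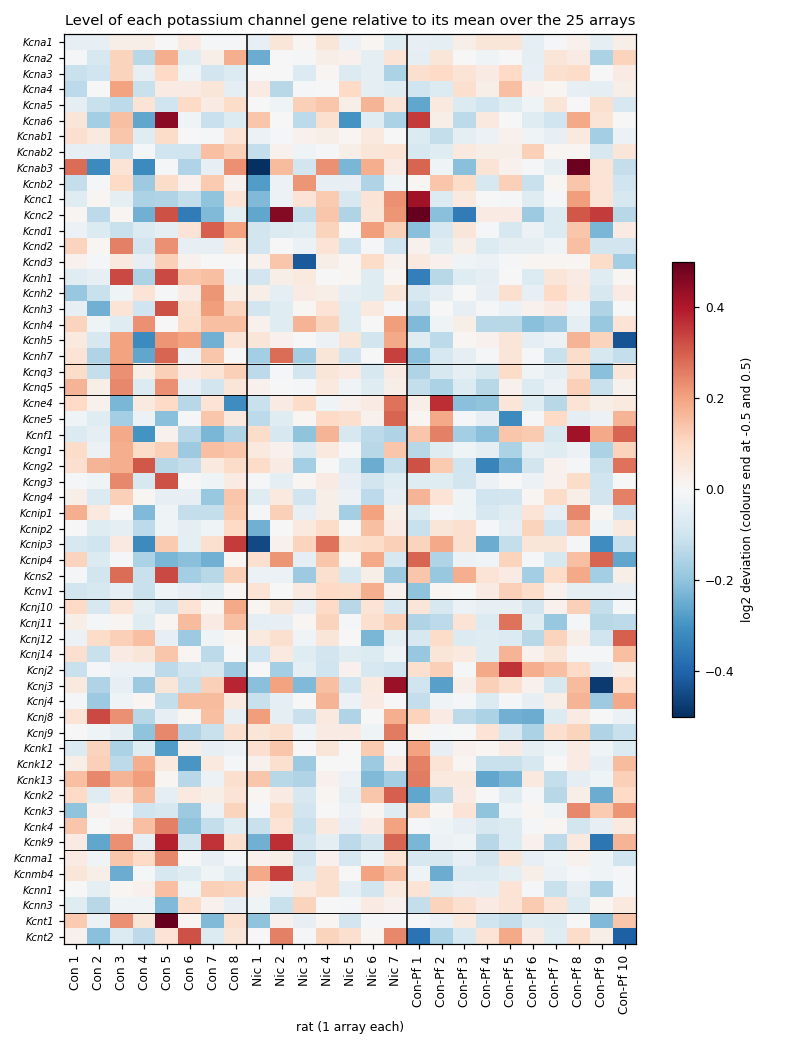
Deviation of each of the 58 genes (rows, by family) from its mean over the 25 arrays (columns, by group), on the log2 scale, with colours that end at -0.5 and 0.5. The row of Kcnj2 is above its mean in most Con-Pf rats, the column of Con 5 holds several strong deviations in both directions, and no family forms a block by group.

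Among the inward rectifiers, Kcnj2 was the gene that rose. Its log2 level was between 9.67 and 9.84 in Con (median 9.77), between 9.68 and 9.87 in Nic (median 9.77), and between 9.81 and 10.22 in Con-Pf (median 9.96). Con and Nic rats overlapped almost completely, while 9 of 10 Con-Pf rats lay above the highest Con rat and 8 of 10 above the highest Nic rat. The group means were 9.77 ± 0.06 in Con (SD, n = 8), 9.78 ± 0.07 in Nic (SD, n = 7) and 9.97 ± 0.12 in Con-Pf (SD, n = 10). The log2 fold change in Con-Pf against Con was 0.20 (SE 0.04, 95% interval 0.11 to 0.29, adjusted p = 0.0168 by limma), that is 1.15-fold. In Con-Pf against Nic it was 0.19 (SE 0.05), which did not pass (adjusted p = 0.126), and in Nic against Con 0.01 (95% interval -0.08 to 0.11). The call in Con-Pf against Con held when any single array was left out, with adjusted p from 0.00768 to 0.0402. It was lost without Con 3 and Con 5 together (log2 fold change 0.20, adjusted p = 0.0518) and under 4 other alternatives, with adjusted p from 0.00602 to 0.0625 over all 41.

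A set of genes of another kind also differed between these groups of rats. Of 10 immediate early genes, which neurons switch on within minutes of activity, 9 rose in Con-Pf relative to Con and 7 relative to Nic. Their median log2 fold changes were 1.09 and 0.81. Of all probe sets kept, 1% and 0.171% were called as higher in these comparisons. The study had already reported every gene of this list as different between Con and Con-Pf on these same arrays. The count of listed genes that rose is therefore no independent result. The summed log2 level of the list was between 87.9 and 93.4 in Con, 88.5 and 96.1 in Nic and 94.9 and 103.3 in Con-Pf. The part of this difference in the values of Kcnj2 was not tested.

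The other inward rectifiers gave no call. Kcnj4 (Kir2.3), a close relative of Kcnj2 that striatal projection neurons also use, was between 9.91 and 10.25 in Con, 9.98 and 10.25 in Nic, and 9.91 and 10.28 in Con-Pf, with medians of 10.09, 10.09 and 10.07. The groups overlapped throughout, and the log2 fold change in Con-Pf against Con was -0.01 (95% interval -0.12 to 0.09). Kcnj12 (Kir2.2) and Kcnj14 (Kir2.4) had -0.01 and 0.01 in the same comparison. Kcnj10, the Kir4.1 subunit by which astrocytes take up potassium, had a median of 11.25 in Con, 11.22 in Nic and 11.18 in Con-Pf, and its log2 fold change was -0.05 in Con-Pf against Con (95% interval -0.14 to 0.04). The astrocyte markers listed beside it gave 0 of 7 calls in each comparison. In Con-Pf against Con their median log2 fold change was -0.10, with 3 of 7 above 0. Kcnj3 and Kcnj9, subunits of channels opened by G proteins, had log2 fold changes of -0.06 and 0.00 in Con-Pf against Con. Kcnj6, another subunit of such channels, had a mean level of 6.74 over the arrays and fell below the filter.

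**Figure D3:**
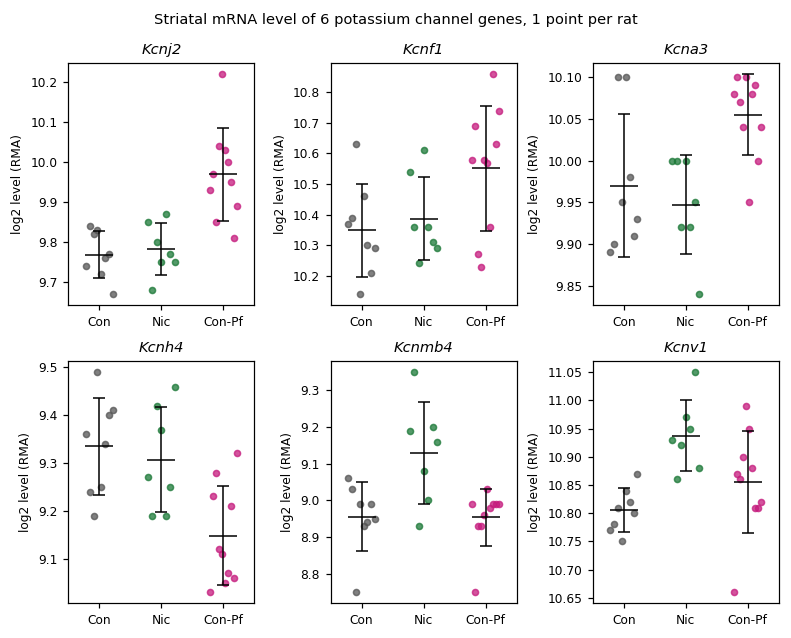
Log2 level in each rat (points) for Kcnj2, Kcnf1, Kcna3, Kcnh4, Kcnmb4 and Kcnv1 in Con, Nic and Con-Pf, with the mean and SD of each group as lines, each panel on its own scale. The Con-Pf rats stand high in Kcnj2 and low in Kcnh4, and the Nic rats stand high in Kcnmb4 and Kcnv1, with overlap between groups in every panel.

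In the voltage-gated families, Kcnh4 was the member with the smallest p. Its log2 level was between 9.19 and 9.49 in Con (median 9.35), between 9.19 and 9.46 in Nic (median 9.27) and between 9.03 and 9.32 in Con-Pf (median 9.11). Of the Con-Pf rats, 6 of 10 lay below the lowest Con rat and below the lowest Nic rat, and all 10 lay below the Con median. Kcnh4 had a log2 fold change of -0.19 in Con-Pf against Con (SE 0.05, 95% interval -0.29 to -0.09), which did not pass the test (adjusted p = 0.0551 by limma), and -0.16 in Con-Pf against Nic (adjusted p = 0.614). The side of the threshold depended on single arrays. The adjusted p in Con-Pf against Con was 0.0489 without Con 2, 0.0490 without Con 3, 0.0483 without Con-Pf 3, 0.0312 without Con-Pf 10, and 0.0394 without Con 3 and Con 5 (log2 fold change -0.23). Over all 41 alternatives it ran from 0.0265 to 0.274, and was under 0.05 in 9.

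**Figure D4:**
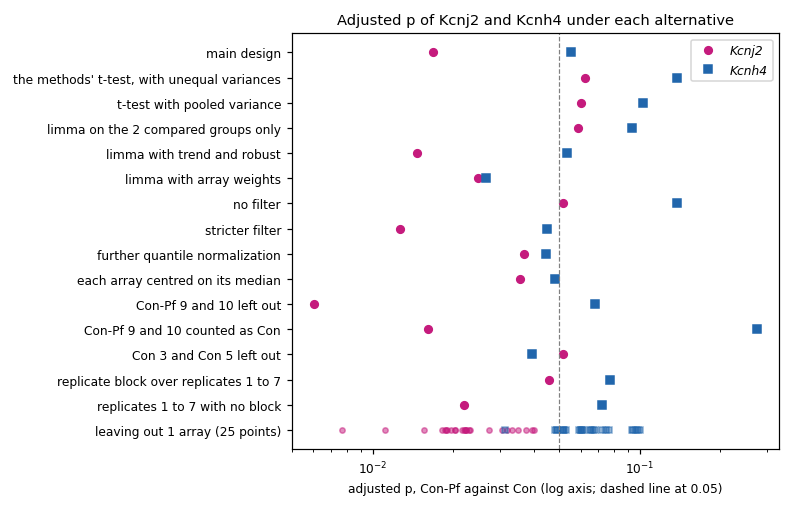
Adjusted p of Kcnj2 and Kcnh4 in Con-Pf against Con (log axis) under the main design and the alternatives (rows), except the use of other probe sets of a gene. The last row holds the 25 fits that leave out 1 array, and a dashed line stands at 0.05. Kcnj2 lies between 0.00602 and 0.0625 and Kcnh4 between 0.0265 and 0.274, so both straddle the line.

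Kcna3, the Kv1.3 subunit, and Kcna5, the Kv1.5 subunit, differed in opposite directions between Con-Pf and Nic without passing the test. Kcna3 was between 9.89 and 10.10 in Con (median 9.94), 9.84 and 10.00 in Nic (median 9.95) and 9.95 and 10.10 in Con-Pf (median 10.07), and 8 of 10 Con-Pf rats lay above the highest Nic rat. The difference was 0.11 on the log2 scale in Con-Pf against Nic (SE 0.04, adjusted p = 0.700 by limma) and 0.08 in Con-Pf against Con (adjusted p = 0.175), with 0.13 when Con 3 and Con 5 were left out (adjusted p = 0.0595). Kcna5 was between 9.41 and 9.65 in Con (median 9.54), 9.52 and 9.71 in Nic (median 9.61), and 9.28 and 9.63 in Con-Pf (median 9.51), with a log2 fold change of -0.11 in Con-Pf against Nic (adjusted p = 0.999). Of the Con-Pf rats, 5 of 10 lay below the lowest Nic rat in Kcna5, and the ranges overlapped in both genes.

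The A-type subunits of the striatum gave no call. Kcnd2, which encodes Kv4.2, was between 12.38 and 12.72 in Con (median 12.50), 12.36 and 12.54 in Nic (median 12.44) and 12.38 and 12.62 in Con-Pf (median 12.42). Its log2 fold change was -0.08 in Con-Pf against Con (95% interval -0.18 to 0.01) and -0.10 in Nic against Con (SE 0.05, adjusted p = 0.324), and these were -0.02 and -0.04 without Con 3 and Con 5. Kcna4, which encodes Kv1.4, had medians of 9.95, 9.92 and 9.95 in Con, Nic and Con-Pf, and a log2 fold change of 0.02 in Con-Pf against Nic (95% interval -0.07 to 0.12). Kcnab1, a beta subunit that speeds the inactivation of Kv1 channels, was between 12.61 and 12.80 in Con (median 12.72), 12.63 and 12.72 in Nic (median 12.67), and 12.49 and 12.71 in Con-Pf (median 12.63). All 10 Con-Pf rats and all 7 Nic rats lay below the Con median of Kcnab1. Against Con, Con-Pf gave a log2 fold change of -0.09 (SE 0.03, adjusted p = 0.130 by limma), and -0.07 without Con 3 and Con 5 (adjusted p = 0.612).

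The KChIP genes encode calcium-binding helper subunits of Kv4 channels. Kcnip2 was between 10.00 and 10.23 in Con (median 10.10), 9.89 and 10.28 in Nic (median 10.17) and 10.02 and 10.27 in Con-Pf (median 10.15), with a log2 fold change of 0.04 in Con-Pf against Con (95% interval -0.05 to 0.14). Its second probe set, which was not used, had 0.00 in the same comparison. Kcnip4 was between 8.09 and 8.44 in Con (median 8.22), 8.25 and 8.55 in Nic (median 8.40) and 8.07 and 8.62 in Con-Pf (median 8.31). All 7 Nic rats lay above the Con median and 3 of 7 above the highest Con rat. The log2 fold change in Nic against Con was 0.17 (SE 0.07), which did not pass (adjusted p = 0.281 by limma), and it was 0.17 without Con 3 and Con 5.

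Several genes of this family encode silent subunits, which form no channel alone and change the behaviour of Kv2 channels when they join them. Kcnf1 (Kv5.1) was between 10.14 and 10.63 in Con (median 10.34), 10.24 and 10.61 in Nic (median 10.36) and 10.23 and 10.86 in Con-Pf (median 10.58), and 4 of 10 Con-Pf rats lay above the highest Con rat. Its log2 fold change in Con-Pf against Con was 0.20 (SE 0.08), as large as that of Kcnj2, but the wider spread left it short of the threshold (adjusted p = 0.148 by limma). Without Con 3 and Con 5 the log2 fold change of Kcnf1 was 0.27 (adjusted p = 0.214). Kcng1 (Kv6.1) was between 9.83 and 10.19 in Con (median 10.12), 9.87 and 10.15 in Nic (median 10.03), and 9.85 and 10.12 in Con-Pf (median 9.96), and 9 of 10 Con-Pf rats lay below the Con median. Kcng1 had a log2 fold change of -0.13 in Con-Pf against Con (SE 0.05, adjusted p = 0.131), -0.17 without Con 6 (adjusted p = 0.0376) and -0.10 without Con 3 and Con 5 (adjusted p = 0.614). Over the 41 alternatives its adjusted p ran from 0.0376 to 0.614.

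Kcnv1 (Kv8.1), also a silent subunit, was higher in Nic rats without passing the test. Its level was between 10.75 and 10.87 in Con (median 10.81), 10.86 and 11.05 in Nic (median 10.93) and 10.66 and 10.99 in Con-Pf (median 10.87). Of the Nic rats, 6 of 7 lay above the highest Con rat, so the groups nearly separated. The log2 fold change in Nic against Con was 0.13 (SE 0.04, 95% interval 0.05 to 0.21, adjusted p = 0.268 by limma), and 0.14 without Con 3 and Con 5. In Con-Pf against Nic it was -0.08 (adjusted p = 0.999). Kcns2 (Kv9.2) had medians of 8.63, 8.65 and 8.74 in Con, Nic and Con-Pf, and its log2 fold change in Nic against Con was -0.08 (95% interval -0.24 to 0.08). Kcne5, a small accessory subunit, had medians of 8.81, 8.85 and 8.83, and 0.08 in Nic against Con (95% interval -0.05 to 0.22), which was 0.03 without Con 3 and Con 5 and 0.04 without Nic 7.

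KCNQ channels carry the M-current, which acetylcholine shuts off through muscarinic receptors. Kcnq3 was between 10.64 and 10.99 in Con (median 10.85), 10.63 and 10.83 in Nic (median 10.75) and 10.55 and 10.85 in Con-Pf (median 10.71). Kcnq5 was between 11.01 and 11.35 in Con (median 11.15), 11.04 and 11.16 in Nic (median 11.11) and 10.95 and 11.22 in Con-Pf (median 11.04). In both genes 9 of 10 Con-Pf rats lay below the Con median. Both had a log2 fold change of -0.12 in Con-Pf against Con (SE 0.05), with adjusted p of 0.158 for Kcnq3 and 0.157 for Kcnq5, and neither passed. Without Con 3 and Con 5 the values were -0.08 and -0.06 (adjusted p = 0.726 and 0.800). With all arrays, Nic rats differed from Con rats by -0.10 in Kcnq3 and -0.06 in Kcnq5, and with both control arrays left out by -0.06 and -0.01.

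The two-pore channels carry the background leak. Kcnk2 (TREK-1), opened by stretch and fatty acids, was between 11.08 and 11.31 in Con (median 11.19), 11.06 and 11.44 in Nic (median 11.15) and 10.88 and 11.24 in Con-Pf (median 11.11). Of the Con-Pf rats, 5 of 10 lay below the lowest Con rat and 4 of 10 below the lowest Nic rat. Kcnk2 had a log2 fold change of -0.11 in Con-Pf against Con (adjusted p = 0.218 by limma) and -0.12 in Con-Pf against Nic (adjusted p = 0.999). Kcnk1 (TWIK-1) was between 10.79 and 11.18 in Con (median 11.03), 11.06 and 11.22 in Nic (median 11.14) and up to 11.28 in Con-Pf (median 11.07), and all 7 Nic rats lay above the Con median. Its log2 fold change in Nic against Con was 0.12 (SE 0.05, adjusted p = 0.276), and 0.07 without Con 3 and Con 5. Kcnk13 (THIK-1), a channel of microglia, was between 7.37 and 7.76 in Con (median 7.63), 7.30 and 7.66 in Nic (median 7.38) and 7.26 and 7.78 in Con-Pf (median 7.53). Its log2 fold change in Nic against Con was -0.16 (SE 0.07, adjusted p = 0.283), and 0 of 5 microglial markers passed the test in any comparison.

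Among the calcium-activated channels, Kcnmb4 stood high in Nic rats. This beta4 subunit slows the BK channel, whose pore is encoded by Kcnma1. Kcnmb4 was between 8.75 and 9.06 in Con (median 8.97), 8.93 and 9.35 in Nic (median 9.16) and 8.75 and 9.03 in Con-Pf (median 8.98). Of the Nic rats, 5 of 7 lay above the highest Con rat, all 10 Con-Pf rats lay below the Nic median, and the Con and Con-Pf ranges were nearly the same. Kcnmb4 had a log2 fold change of 0.18 in Nic against Con (SE 0.05, 95% interval 0.07 to 0.29, adjusted p = 0.268 by limma), -0.18 for Con-Pf against Nic (SE 0.05, adjusted p = 0.404) and 0.00 for Con-Pf against Con (95% interval -0.10 to 0.10). Neither of the differences from Nic passed the test, and without Con 3 and Con 5 the first was 0.14. Kcnma1 itself was between 10.88 and 11.17 in Con (median 10.94), 10.83 and 10.99 in Nic (median 10.94) and 10.82 and 10.98 in Con-Pf (median 10.88). Against Con, Kcnma1 had a log2 fold change of -0.09 in Con-Pf (SE 0.04, adjusted p = 0.160), and -0.05 without Con 3 and Con 5. The SK channel genes Kcnn1 and Kcnn3 had -0.08 and 0.09 in Con-Pf against Con, and Kcnn2 had no probe set with its symbol alone.

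Markers of other cell types were read beside the genes that stood high in Nic. Of markers of cortical and thalamic excitatory neurons, 3 of 10 were measured above the filter (Slc17a7, Cck and Fezf2) and 0 passed the test. Their summed level was between 22.1 and 25.5 in Con (median 22.6), 21.9 and 27.3 in Nic (median 23.9) and 21.7 and 23.3 in Con-Pf (median 22.1), and their median log2 fold change was -0.53 when Con-Pf was set against Nic and 0.33 when Nic was set against Con. Of 8 choroid plexus markers, 2 were above the filter, and their summed level was between 13.9 and 22.6 in Con, 13.8 and 19.0 in Nic and 14.1 and 23.6 in Con-Pf. Of 6 interneuron markers, 5 were higher on average in Nic than in Con, with a median log2 fold change of 0.11, and 0 passed the test. Their summed level was between 53.2 and 55.0 in Con (median 53.8), 53.2 and 55.6 in Nic (median 54.8) and 53.9 and 55.2 in Con-Pf (median 54.3). The interneuron peptide genes Npy and Sst had 0.22 and 0.17 in Nic against Con (adjusted p = 0.268 and 0.276 by limma). Nos1, the interneuron marker that was lower on average, had -0.09 in this comparison (adjusted p = 0.553). The part of these differences in the values of Kcnmb4, Kcnv1 and the other potassium channel genes was not tested. Markers of oligodendrocytes (6) and endothelial cells (6) gave 0 calls in each comparison.

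The sodium-activated channels Kcnt1 and Kcnt2 gave no call either. Kcnt1 (Slack) was between 9.90 and 10.61 in Con (median 10.18), 9.91 and 10.13 in Nic (median 10.10) and 9.89 and 10.25 in Con-Pf (median 10.07), and the highest Con value belonged to Con 5. Kcnt1 had a log2 fold change of -0.14 in Nic against Con (SE 0.07, adjusted p = 0.312 by limma), and -0.05 without Con 3 and Con 5. Kcnt2 (Slick) was between 7.51 and 8.03 in Con (median 7.69), 7.71 and 7.96 in Nic (median 7.80) and 7.31 and 7.90 in Con-Pf (median 7.70), with -0.17 in Con-Pf against Nic (SE 0.08, adjusted p = 0.999).

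Some inward rectifiers work only with a partner from another gene family. ATP-sensitive channels, which open when cellular energy is low, pair Kcnj8 (Kir6.1) or Kcnj11 (Kir6.2) with a sulfonylurea receptor, Abcc9 or Abcc8, and on GRCr8 Kcnj8 is the neighbour of Abcc9 and Kcnj11 that of Abcc8. All 4 genes were lower on average in Con-Pf than in Con, and none passed the test. Kcnj8 was between 7.28 and 7.75 in Con (median 7.46), 7.27 and 7.63 in Nic (median 7.42) and 7.17 and 7.53 in Con-Pf (median 7.37), with a log2 fold change of -0.14 (SE 0.06, adjusted p = 0.199 by limma). Kcnj11 was between 7.93 and 8.15 in Con, 7.95 and 8.11 in Nic and 7.80 and 8.26 in Con-Pf, with -0.09 (SE 0.05, adjusted p = 0.266). Abcc8 was between 8.32 and 8.74 in Con, 8.15 and 8.51 in Nic and 8.07 and 8.48 in Con-Pf, with -0.17 (SE 0.06, adjusted p = 0.114), and -0.12 when Con 3 and Con 5 were left out.

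Abcc9 was between 8.11 and 9.15 in Con (median 8.40), 8.15 and 8.59 in Nic (median 8.29) and 7.97 and 8.38 in Con-Pf (median 8.14). Its highest Con values were 9.15 in Con 5 and 8.94 in Con 3. The log2 fold change in Con-Pf against Con was -0.35 (SE 0.10, adjusted p = 0.0843 by limma), and a second probe set of the gene gave -0.52 (adjusted p = 0.0712). Without Con 3 and Con 5 it was -0.17 (adjusted p = 0.504), and without Con 4, the lowest control, -0.41 (adjusted p = 0.0413). Over the 40 alternatives with a value, its adjusted p ran from 0.0413 to 0.504. Kcnj8 and Abcc9 are used by mural cells of blood vessels, and 0 of 8 mural markers passed the test in any comparison. Their summed level was between 69.3 and 70.8 in Con, 69.3 and 72.0 in Nic and 69.6 and 70.5 in Con-Pf. In Con-Pf against Con, 5 of the 8 markers were higher on average, and Myh11 was lower, with -0.21 (adjusted p = 0.099 by limma). The part of the mural cells in the values of Kcnj8 and Abcc9 was not tested.

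**Figure D5:**
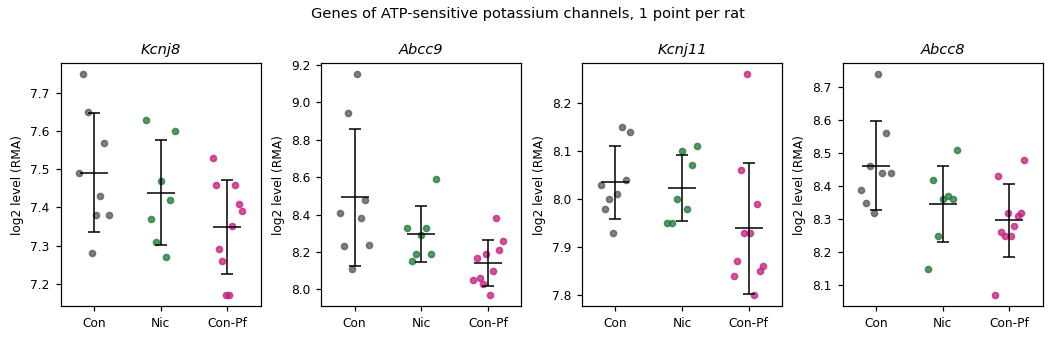
Log2 level in each rat (points) of the pore genes Kcnj8 and Kcnj11 and the receptor genes Abcc9 and Abcc8 in Con, Nic and Con-Pf, with the mean and SD of each group as lines, each panel on its own scale. Con-Pf means are the lowest in all 4 panels, ranges overlap in each, and the highest Con points of Abcc9 (9.15 and 8.94) are Con 5 and Con 3.

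A list of 35 other subunits, anchoring proteins and regulators of potassium channels was read beside the members. Of these, 31 had a probe set with their symbol alone and 28 passed the filter, and 0 of the 28 rose or fell in any comparison. Con-Pf against Con gave a median log2 fold change of -0.04 over the 28, with 6 above 0, Con-Pf against Nic one of -0.01, with 10 above 0, and Nic against Con one of -0.05, with 7 above 0. Of all probe sets kept, 55.8%, 44.1% and 59.1% were above 0 in the same order. The medians and counts of the 28 were not computed without Con 3 and Con 5. Apart from the sulfonylurea receptors, the smallest p in Con-Pf against Con belonged to Adam23, a receptor for the secreted protein Lgi1 (-0.13, adjusted p = 0.104 by limma), which had -0.08 without Con 3 and Con 5 (adjusted p = 0.611). For Con-Pf against Nic they belonged to Gnb1, the G protein beta subunit that opens Kcnj3 channels (-0.05, adjusted p = 0.999), Cntn2, which gathers Kv1 channels beside nodes of Ranvier (0.11, adjusted p = 0.999), and Abcc9 (-0.15, adjusted p = 0.999). In Nic against Con they belonged to the ankyrin genes Ank2 and Ank3 and to Adam23 (-0.11, and -0.06 when both control arrays were left out). Ank3, which anchors KCNQ channels at the axon initial segment, had -0.14 (adjusted p = 0.268), and -0.05 without Con 3 and Con 5.

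Some members lie side by side in the genome. On GRCr8, Kcnj2 lies next to Kcnj16, which fell below the filter with a mean level of 6.43 and had a log2 fold change of 0.19 in Con-Pf against Con (SE 0.10, adjusted p = 0.426) when all probe sets were tested. Kcna3 lies next to Kcna2, which had -0.03 in Con-Pf against Con beside 0.08 for Kcna3, and 0.01 beside 0.13 with both control arrays left out. Kcna5, Kcna1 and Kcna6 lie in a row, and had -0.03, 0.00 and 0.04, and -0.06, 0.01 and 0.13 without those arrays.

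The 25 genes below the filter had mean levels from 4.76 to 6.84 over the arrays. When all 29214 probe sets were tested with limma, 0 of them passed at an adjusted p under 0.05 in any comparison. At an unadjusted p under 0.05 by limma, 1 of the 25 was counted in Con-Pf against Con, Kcnh6 (adjusted p = 0.313). Con-Pf against Nic counted 0 and Nic against Con 2, Kcnj1 and Kcns1 (adjusted p = 0.477 and 0.483). The share of all 29214 probe sets at this limit was not computed, so these counts are no result about the members. The log2 fold changes of the 25 genes ran from -0.12 to 0.19 in Con-Pf against Con. They ran from -0.21 to 0.37 in Con-Pf against Nic and from -0.19 to 0.18 in Nic against Con. The widest value was that of Kcnj13, a channel of the choroid plexus, with 0.37 in Con-Pf against Nic (SE 0.68), and it rested on 1 rat. Kcnj13 stood near 11 on Con-Pf 4 and at 10.35 on Con 2, and between 5.22 and 7.61 on all other arrays. The value turned to -0.14 without Con-Pf 4, a setting chosen after seeing the data.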

How the data were processed

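The striatal RNA of 25 male rats (8 Con, 7 Nic, 10 Con-Pf) was measured with an Affymetrix rat Gene 1.0 ST array for each. The deposited values are log2 levels that the authors made with RMA (background correction, quantile normalization across arrays and a summary per probe set). Per the submitters' processing notes the software was Affymetrix Expression Console 1.1. The authors had removed 2 Con arrays and 1 Nic array. They kept a sample with a low measure of RNA integrity, which they put down to likely technical issues. Which sample this was, and whether it is among the 25 arrays, is not stated. Groups were taken from the sample titles, and 0 further sample columns were left out. Litters and batches were not given for each array, and the study states that hybridisation was balanced over the groups.

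Gene symbols were those of the platform annotation (15310 probe sets with 1 symbol, 323 with several, 13581 with none), and 1 Kcn probe set with several symbols was left out. All 83 genes matched RefSeq by gene ID. The filter kept the 14607 probe sets whose mean reached the median (quantile 0.5). The tests used limma 3.58.1 (R 4.3.3), which fitted the 3 groups jointly, and Benjamini-Hochberg adjustment over these probe sets, with a threshold of 0.05. Planted changes in simulated data of Con-Pf against Con were recovered by limma in 39% of cases at a size of 0.2 and in 95% at 0.5, and 7 of 14607 probe sets were called falsely. The simulated noise was drawn independently for each probe set, without spread shared by whole arrays, so these rates may not hold for the measured data. The number of arrays limits the precision. Sequences are from RefSeq (GRCr8). Plots were made in matplotlib 3.10.9 under Python 3.11.15.

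The members and lists were chosen with earlier results of these data known. Genes named with values are those called, the 8 members with the smallest p in each comparison, the member with the smallest F-test p in each letter group, a fixed set of well-known striatal channels, and the 3 partners with the smallest p in each comparison. Others serve as examples and were picked with their values in view. As alternatives, the test was replaced by the methods' t-test, with unequal variances, by a t-test with pooled variance, by limma on each pair of groups, or by limma with trend and robust moderation or with array weights. The filter was dropped or raised to quantile 0.75, the arrays were quantile-normalized again or centred, other probe sets of a gene were used, and Con-Pf 9 and 10 were left out or moved to Con. Con 3 and Con 5 together, and each array in turn, were left out, and a replicate block was fitted. Same-numbered rats of different groups did not deviate together in every pair, so the numbers were not taken as pairs.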

Additional observations from a re-analysis of the deposited data

Results flagged for a closer look

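In 99 tests of a single rat against the rest of its group (a gap to the nearest rat above Dixon's 95% critical value), 10 were past the limit, and chance alone passes about 1 in 20. Kcnmb4 was flagged in Con 3 and in Con-Pf 2, both with a log2 level of 8.75, below the other rats of their groups. Kcng1 stood high at 10.12 in Con-Pf 10, and Kcnd2 at 12.62 in Con-Pf 8. Kcnk1 stood high at 11.28 in Con-Pf 1, Kcne5 low at 8.51 in Con-Pf 5, and Kcnip2 low at 9.89 in Nic 1. Among the partners, Abcc9 stood high at 8.59 in Nic 7, Ank2 at 11.89 in Con-Pf 8 and Cntn2 at 10.74 in Con 5. These flags were spread over 9 of the 25 arrays.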

How the results depend on the processing

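The count of potassium channel genes called in Con-Pf against Con was 1, and it was 0 under the methods' t-test, with unequal variances, limma on each pair of groups, the pooled-variance t-test and no filter. It was 2 with array weights, the stricter filter, further quantile normalization and centring. When single arrays were left out it was 1 to 2 (2 without Con 2, Con 3, Con 6, Con-Pf 3 or Con-Pf 10). The stricter filter tested 34 members and no filter 83, in place of 58. Of all probe sets, 196 of 14607 were called with array weights and 124 of 7304 with the stricter filter. Further quantile normalization gave 179 and centring 140. Without Con 2, Con 3, Con 6, Con-Pf 3 or Con-Pf 10, in that order, 181, 104, 344, 139 and 149 were called. These counts of members are no result about the family. Without Con 3 and Con 5 the count of members was 1, Kcnh4 in place of Kcnj2. In Con-Pf against Nic the count was 0, and 1 (Kcnj2) with array weights (adjusted p = 0.0494) and without Con-Pf 9 and 10 (adjusted p = 0.0448), over a range from 0.0448 to 0.360. Of all probe sets, 55 were called with array weights and 24 without Con-Pf 9 and 10. In Nic against Con the count of members was 0 in all 41 alternatives. The median log2 fold changes of the family stayed between -0.04 and 0 in each comparison. After further quantile normalization 19 of the 58 members, in place of 25, were above 0 in Con-Pf against Con and 17 in Nic against Con. The median log2 fold change of all probe sets moved from 0.02 to 0 in both comparisons under this setting. The share of all probe sets above 0 was not computed for it, so the lower counts are no result about the members. Kcnt2, Kcnip4, Kcnk13, Kcne5, Kcns2, Abcc8 and Abcc9 gave no value under the stricter filter. Kcns2 in Nic against Con turned to 0.01 without Con 3 and Con 5, and Kcnj4 in Con-Pf against Con to 0.01 without Con 6, Con 7 or Con-Pf 9. Kcnj13 in Con-Pf against Nic, tested over all probe sets, turned to -0.14 without Con-Pf 4 (a setting chosen after seeing the data). The cause of these shifts was not tested.

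The members counted at an unadjusted p under 0.05 in Con-Pf against Con fell from 17 to 11 without Con 3, Con 5 or Con-Pf 9 and under the methods' t-test, and to 7 with Con-Pf 9 and 10 counted as Con. In Con-Pf against Nic they fell from 8 to 5 without Con-Pf 1, Con-Pf 2 or Nic 6. In Nic against Con they were 5, 3 without Nic 6 and 8 after further quantile normalization. How many of all probe sets reached this unadjusted limit was not computed for these alternatives, so the shifts are no result about the members. Over all probe sets 184 were called in Con-Pf against Con. Removal of Con 3 brought this to 104, of Con 5 to 108 (both to 85), of Con 1 to 114 and of Con-Pf 2 to 116, and removal of Con 7 to 480, of Con 6 to 344, of Con 8 to 295 and of Con 4 to 285. It was 66 under the methods' t-test, 84 with pooled variance, 96 without a filter, 99 on each pair of groups and 27 with Con-Pf 9 and 10 counted as Con. In Con-Pf against Nic they were 27, 55 with array weights and 5 with Con-Pf 9 and 10 counted as Con. With a replicate block over replicates 1 to 7, Kcnj2 had 0.22 (adjusted p = 0.0456), 1 member was called, and 153 probe sets were called beside 132 without the block. The correlation of same-numbered deviations was 0.02 to 0.18 in Con-Pf and Con, and from -0.36 to 0.34 in the other pairs of groups. How far single probes stood above background was not examined, and differences of about 0.2 were recovered in 39% of cases simulated with independent noise.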
